A study of Homo sapiens with 24 samples.

Results

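The comparison described here set shPRKCQ cells against non-targeting control (NTC) cells after treatment with DMSO, the vehicle of a phorbol ester, so that protein kinase C was not stimulated by a drug. It held 6 shPRKCQ and 6 NTC libraries, 3 of each from MyLa and 3 from HuT 78. Both lines come from cutaneous T cell lymphoma, MyLa from its mycosis fungoides form and HuT 78 from the leukaemic form, Sézary syndrome. All 13025 genes that the authors list for this comparison were taken, out of 58780 listed over the series, and 13007 of them carry a p-value.

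The whole series has 24 libraries, in 8 groups of 3 that combine line, hairpin and treatment. All cells carried a hairpin construct, NTC or shPRKCQ, and knockdown cells were held in doxycycline at 1 µg/ml for 72 h or longer and then in DMSO for 24 h. The protocols leave unsaid whether NTC cells were given doxycycline, so drug and hairpin cannot be told apart. Nor do the labels say whether each line was a pool or a clone, or whether more than 1 hairpin was used. The other arm of the series received the phorbol ester TPA at 10 ng/ml for 24 h in place of DMSO.

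PRKCQ encodes protein kinase C theta, the isoform that T cells bring to the contact with an antigen-presenting cell. Diacylglycerol made after receptor engagement activates it, and it then feeds the BCL10 and MALT1 complex that opens the NF-kappaB route, as well as AP-1 and the calcium-dependent NFAT factors. Phorbol esters take the place of diacylglycerol, which is why vehicle-treated cells are the resting arm of such a design.

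Values are the authors' log2 fold changes of shPRKCQ over NTC, with both lines in 1 fit. Negative values are read as lower in shPRKCQ cells, a direction set by PRKCQ itself. No value per library was used, so levels in single libraries, the sequencing depth behind a value and any difference between the lines are not analysed here. Replicates are labelled as independent, with no word on what separates them, so the p-values measure the spread between these libraries, which may be technical. Whether the fit had a term for the line is not stated, so that spread may also include the difference between the lines. In bulk RNA, fewer cells of a type and less RNA per cell cannot be told apart. A gene is said to have risen or fallen only at an adjusted p under 0.05.

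Few genes passed the adjusted threshold in resting cells when PRKCQ was lowered. In all, 14 genes passed, 0.108% of those tested, of which 10 fell (0.0769%) and 4 rose (0.0308%). The median fold change over all tested genes was 0.0075 and the quartiles were -0.083 and 0.093, computed from the authors' deposited table. An absolute fold change of at least 1 on the log2 scale was held by 67 genes. Of these, 51 were at an unadjusted p under 0.05, 28 higher and 23 lower, and 3 passed the adjusted threshold. At an unadjusted p under 0.05 there were 395 genes, 3.04% of those tested, with 178 higher (1.37%) and 217 lower (1.67%). That share is under the 5% that a threshold of 0.05 sets when no gene differs, so these p-values may be too large. The small number of passing genes therefore does not show that few genes differed. The plot of fold change against p-value shows PRKCQ apart from all other genes.

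**Figure D1:**
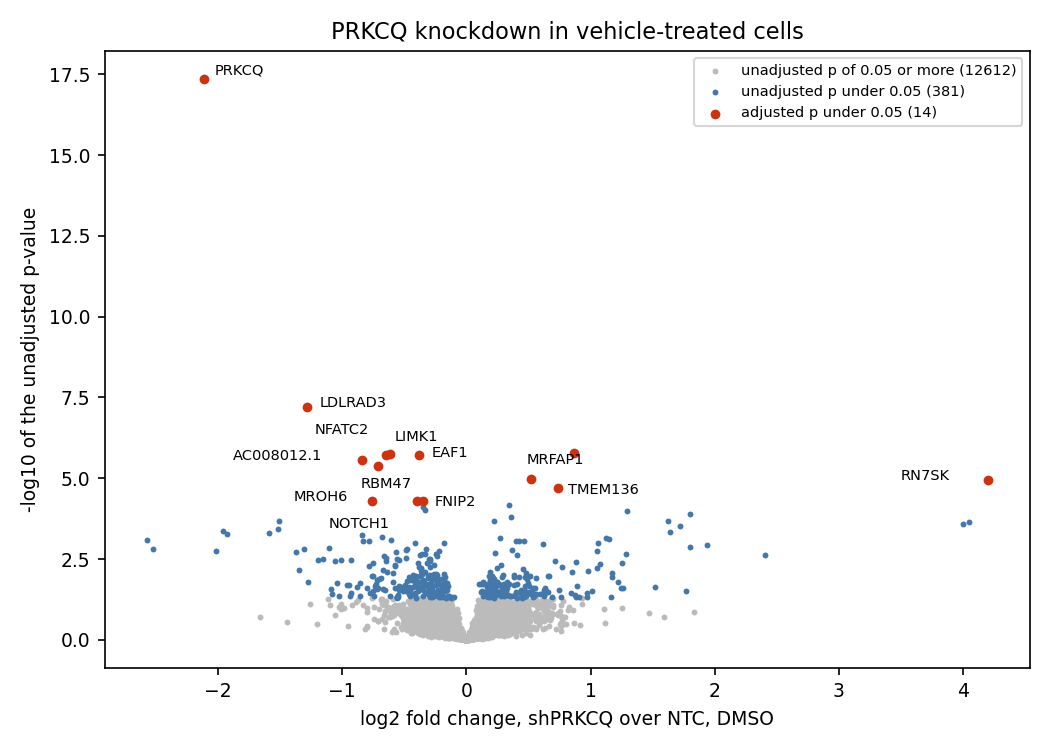
The log2 fold change of shPRKCQ over NTC cells in DMSO is plotted against the unadjusted p-value on a -log10 scale, 1 point per gene for 13007 genes, with 13 of the 14 genes past the adjusted threshold named. PRKCQ at -2.11 lies far above the rest, and RN7SK at 4.20 is the largest change among the named genes.

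The implied standard error, the fold change divided by the normal quantile of its p-value, had a median of 0.172 over genes. Its 10th percentile was 0.10 and its 90th 0.337. FNIP2 and EAF1, the genes that passed with the smallest changes, had implied errors of 0.087 and 0.080.

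PRKCQ (ENSG00000065675.14, GRCh38 chromosome 10, 6427143 to 6580301, minus strand) fell to 23.1% of the NTC level, as computed from its fold change of -2.11 with an implied standard error of 0.24 per the authors' deposited table, with adjusted p = 5.61e-14. PRKCQ-AS1, the antisense gene that starts 118 bases from it, was at 0.03 per the authors' deposited table, with unadjusted p = 0.797.

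None of its relatives passed. PRKCH and PRKCD, the isoforms eta and delta that like theta need diacylglycerol but no calcium, were at -0.04 and -0.02 in the authors' deposited table. The classical isoform gene PRKCA stood at -0.26 and the atypical PRKCZ also at -0.26, with unadjusted p = 0.162 and 0.125 in the authors' deposited table. Of 9 tested protein kinase C and D genes, PRKCQ was the 1 member at an unadjusted p under 0.05, and 7 of 9 were negative.

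Receptors and signalling proteins were among the genes that fell. LDLRAD3 (chromosome 11, 35943981 to 36232136), a membrane protein with repeats of the low-density lipoprotein receptor type, fell to 41.0% of NTC, computed from -1.29 in the authors' deposited table. LIMK1 (chromosome 7, 74082933 to 74122525), which inactivates the actin-severing protein cofilin, fell to 65.4%, computed from -0.61 in the authors' deposited table. NFATC2 (chromosome 20, 51386957 to 51562831), the NFAT1 transcription factor that calcineurin sends to the nucleus, fell to 63.8%, computed from -0.65 in the authors' deposited table. NOTCH1 (chromosome 9, 136494433 to 136545786), the receptor whose cleaved domain drives transcription in T cells, fell to 75.7%, computed from -0.40 in the authors' deposited table.

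Single genes with roles in RNA binding, elongation and nutrient sensing fell as well, 1 of each. RBM47 (chromosome 4, 40423267 to 40630875), an RNA-binding protein that works with the APOBEC1 editing enzyme, fell to 61.0% of NTC, computed from -0.71 in the authors' deposited table. EAF1 (chromosome 3, 15427355 to 15450635), a partner of the elongation factor ELL, fell to 76.8%, computed from -0.38 in the authors' deposited table. FNIP2 (chromosome 4, 158769138 to 158908049), which pairs with folliculin in amino acid signalling to the Rag GTPases, fell to 78.3%, computed from -0.35 in the authors' deposited table. MROH6 fell to 59.2%, computed from -0.76 in the authors' deposited table. The lists that hold RBM47, EAF1 and FNIP2 had medians of 0.025 for 33 RBM genes, -0.013 for 33 elongation genes and -0.034 for 40 mTOR, Rag and folliculin genes. The clone-based gene AC008012.1 (chromosome 12, 4273762 to 4405490) fell to 55.9%, computed from -0.84 in the authors' deposited table. That gene spans CCND2 and TIGAR on the same strand, which were at -0.12 and 0.10 in the authors' deposited table and did not pass, and reads shared among the 3 could be split between them.

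NOTCH1, FNIP2 and MROH6 were the closest to the threshold, each with adjusted p = 0.0483 per the authors' deposited table. They did not pass in a Benjamini-Hochberg adjustment without histone genes and RNAs that lack a poly(A) tail (adjusted p = 0.0519 for each). Nor did they pass under Holm or Benjamini-Yekutieli adjustment. RBM47 also did not pass under Holm or Benjamini-Yekutieli adjustment, and AC008012.1 did not pass under the latter.

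Of the 4 genes that rose, 3 are described. MRFAP1 (chromosome 4, 6640091 to 6642745), an associate of the chromatin protein MORF4L1, rose to 144%, computed from 0.52 in the authors' deposited table. TMEM136 (chromosome 11, 120325129 to 120333682) rose to 166%, computed from 0.73 in the authors' deposited table. RN7SK is described with the other structural RNAs. MRFAP1, TMEM136 and RN7SK did not pass under Holm or Benjamini-Yekutieli adjustment.

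**Figure D2:**
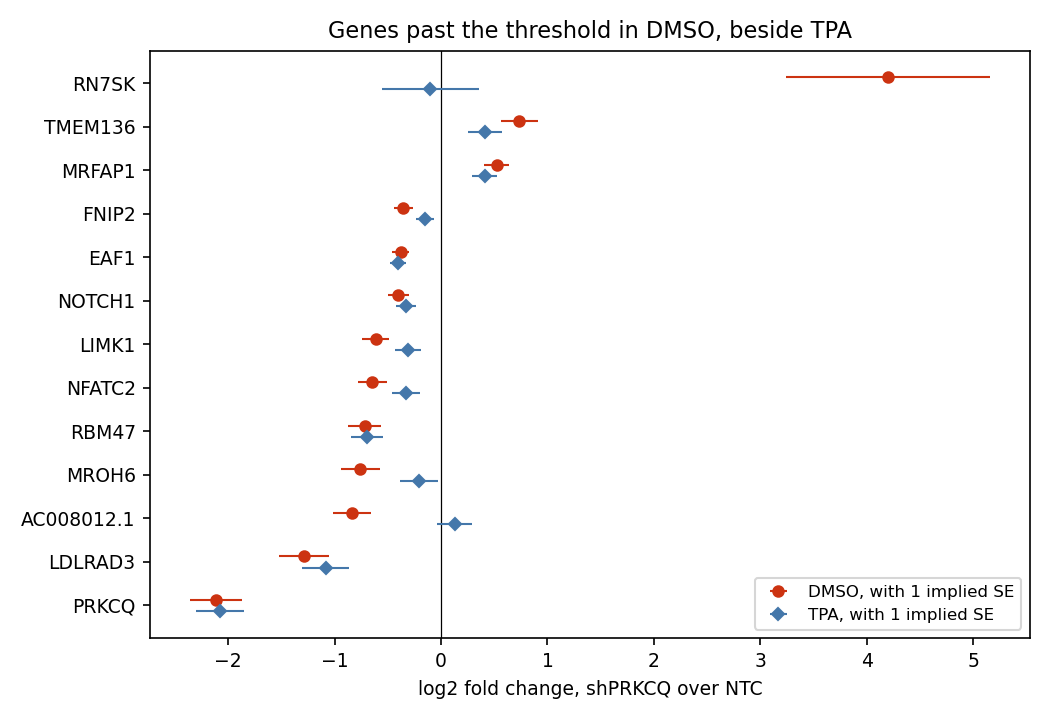
The log2 fold change of shPRKCQ over NTC is shown for 13 of the 14 genes past the threshold in DMSO (circles) and for the same genes in TPA (diamonds), with bars of 1 implied standard error. PRKCQ, LDLRAD3, RBM47 and EAF1 lie at like values in both treatments, while RN7SK and AC008012.1 are near 0 in TPA.

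For each of the 14 genes the 4 nearest tested genes were read, and none of these neighbours passed. METTL6 and COLQ, which overlap EAF1 on the other strand, were at -0.11 and 0.26 in the authors' deposited table.

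Further genes were named by the rank of their p-value or the size of their change. Among the positive ones, HIPK1, a nuclear kinase of homeodomain proteins, was at 0.34 with an adjusted p of 0.0564 in the authors' deposited table. IGFBP2, which binds insulin-like growth factors, was at 1.29 with an adjusted p of 0.0721 in the authors' deposited table. MCU, the pore of the mitochondrial calcium uniporter, and IL6R, the interleukin-6 receptor, were at 0.36 and 1.62 per the authors' deposited table, with adjusted p = 0.102 and 0.123. IL6ST, the shared signalling chain of that receptor, was at 0.26 per the authors' deposited table, with unadjusted p = 0.431.

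Among the negative genes, SLC6A9, a glycine transporter, was at -1.96 by the authors' deposited table, with an adjusted p of 0.205. FGFR1, a fibroblast growth factor receptor, and NRCAM, a cell adhesion molecule, were at -2.52 and -2.57 per the authors' deposited table, with adjusted p = 0.366 and 0.272. Their implied standard errors were 0.80 and 0.77, so these were among the least precise values in the list. SFXN1, the mitochondrial serine carrier, was at -0.41 with an adjusted p of 0.289 in the authors' deposited table.

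To read functions rather than single genes, 77 lists and 29 families of genes named by a shared prefix were described by counts and medians. They hold 3458 distinct tested genes, 26.6% of the table. Over all tested genes 52.3% were positive, 47.7% were negative and the median was 0.0075, which are the values each list is read against. Of the 77 lists and families with 20 or more tested members, 4 had a median of at least 0.1 in either direction.

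**Figure D3:**
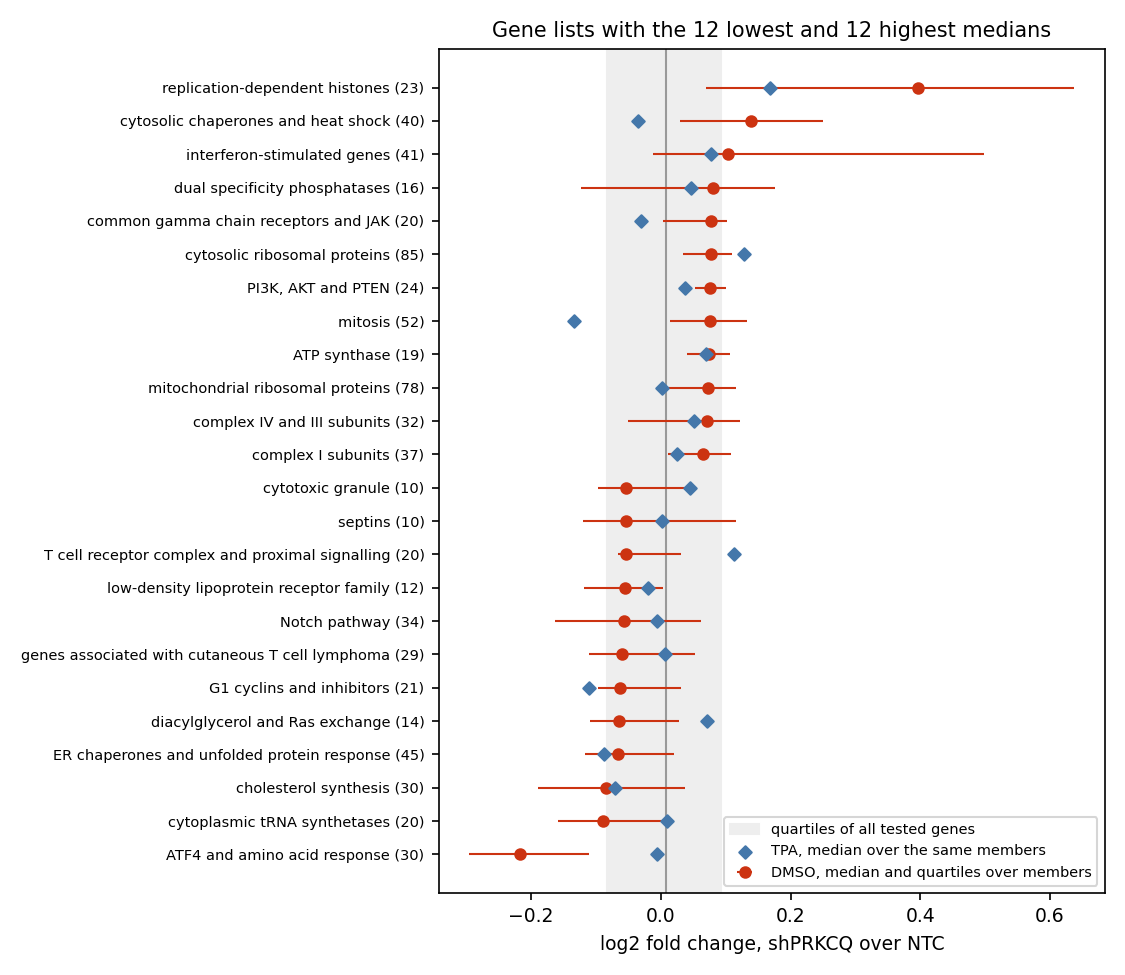
Each circle is the median log2 fold change of a list in DMSO, with a bar over the quartiles of its members, and each diamond is the median of the same members in TPA. The grey band holds the middle of all tested genes, and numbers in parentheses are tested members. Histones, cytosolic chaperones and interferon-stimulated genes sit at the upper end and ATF4 response genes at the lower end in DMSO.

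Lists of the routes downstream of protein kinase C theta had medians close to that of all genes. NF-kappaB subunits and targets had 12 of 23 members positive and a median of 0.027. NFKBIA, the inhibitor that the pathway induces, was at 0.11 and TNFAIP3, its feedback deubiquitinase, also at 0.11 in the authors' deposited table. The relay of BCL10, MALT1 and the IKK kinases had 10 of 19 members positive and a median of 0.015. SOD2, a mitochondrial superoxide dismutase, was the 1 NF-kappaB member at an unadjusted p under 0.05, with 0.28 in the authors' deposited table.

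The AP-1 and immediate early list had 15 positive genes among 25 and its median was 0.060. JUN, a core AP-1 subunit, was at 0.66 by the authors' deposited table, with an unadjusted p of 0.0105, and no other member was at an unadjusted p under 0.05. The Fos-related FOSL2 and FOSL1 were at -0.60 and -0.51 per the authors' deposited table, with unadjusted p = 0.187 and 0.308.

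Among 22 NFAT and calcineurin genes, 11 were positive and the median was -0.008. NFATC2 fell, whereas its relatives NFATC3 and NFAT5 were at 0.06 and 0.01 in the authors' deposited table. The calcineurin subunits PPP3CA, PPP3CB and PPP3CC were at 0.05, -0.03 and 0.21 in the authors' deposited table, and the feedback inhibitor RCAN1 was at 0.07. CABIN1, a calcineurin inhibitor encoded on chromosome 22, was at -0.35 by the authors' deposited table, with an unadjusted p of 0.00216.

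Of 34 Notch pathway genes 22 were negative, with a median of -0.056. NOTCH1 fell, and FBXW7, the ubiquitin ligase subunit that marks active Notch for decay, was at -0.26 per the authors' deposited table, with unadjusted p = 0.00479. Of the target genes, 3 named after their values were seen, NRARP, HES1 and HEY1, were at 0.45, 0.25 and 0.62 in the authors' deposited table, and NRARP alone of these had an unadjusted p under 0.05. NOTCH2, the receptor's paralog, was at -0.06 in the authors' deposited table.

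In the actin list, 28 of 56 members were positive and the median was 0.002. LIMK1 fell, and CORO1B, a coronin, and LCP1, the leukocyte actin bundler plastin, were at -0.65 and -0.56 per the authors' deposited table, with unadjusted p = 0.00289 and 0.00306. In the elongation list EAF1 fell while CDK9 and CCNT1, the P-TEFb kinase and cyclin, were at -0.02 and 0.09 in the authors' deposited table.

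T cell identity was read from markers. Of 15 T cell markers, 8 were among the listed genes and 7 had a p-value, 4 positive and 3 negative, none at an unadjusted p under 0.05. CD3D and CD3G, chains of the receptor complex, were at -0.06 and 0.22 in the authors' deposited table, and ZAP70, the kinase they recruit, at 0.03. Among markers of other cells, 1 of 7 B cell, 0 of 9 myeloid, 1 of 10 epithelial or stromal and 1 of 4 natural killer markers were listed. None of the 3 listed genes was at an unadjusted p under 0.05. A wider list of 18 B cell genes had 5 tested members with a median of 0.365, and 1 of them, IGHM at 4.05 in the authors' deposited table, was at an unadjusted p under 0.05.

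The list of T cell receptor and proximal signalling genes had 12 of 20 members negative and a median of -0.054. T helper and T cell regulators were split evenly, 15 and 15, and 3 of the 30 were negative at an unadjusted p under 0.05, where the background share is 1.67%. SATB1, a chromatin organiser of T cells, was at -1.11, RORA, a nuclear receptor of the Th17 and innate lymphoid lineages, at -1.35, and ZBTB7A at -0.18 per the authors' deposited table, with unadjusted p = 0.0014, 0.00716 and 0.0459. GATA3, the Th2 factor, was at 0.16 and TOX, which is raised in these lymphomas, at 0.15 in the authors' deposited table.

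The list of cytokine receptors and JAK kinases ran from -0.83 to 1.62 with 15 of 20 members positive. Its lowest member was IL2RB, the receptor chain through which interleukin-2 and interleukin-15 both signal, encoded on chromosome 22, at -0.83 per the authors' deposited table, with unadjusted p = 0.000898. The highest was IL6R. IL2RG, the common gamma chain, and JAK3, the kinase bound to it, were at 0.08 and -0.05 in the authors' deposited table. TNFRSF25, a death receptor of T cells, was at -1.06 and CD274, the ligand PD-L1, at 0.84 per the authors' deposited table, with unadjusted p = 0.00377 and 0.0358. BCL2, the survival factor, was at -0.75 by the authors' deposited table, with an unadjusted p of 0.0106, while MCL1 and BCL2L1 were at 0.20 and 0.06.

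A list of 29 genes linked to cutaneous T cell lymphoma held 19 negative members, and 4 were negative at an unadjusted p under 0.05, namely PRKCQ, NOTCH1, SATB1 and RHOA, where the background share is 1.67%. PRKCQ is the hairpin's own target, which leaves 3 others. RHOA, the GTPase recurrently mutated in T cell lymphomas, was at -0.15 per the authors' deposited table, with unadjusted p = 0.0176. PLCG1, the phospholipase that makes diacylglycerol, was at 0.11 in the authors' deposited table.

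Interferon-stimulated genes formed a positive group without any single gene passing. Of 41 tested members 26 were positive, the median was 0.103, and 8 were positive at an unadjusted p under 0.05 against none negative. The background share for that is 1.37% of all genes. The 8 were the antiviral RNA binders IFIT1 at 1.25, IFIT2 at 1.29, IFIT3 at 1.08 and IFIT5 at 1.24, with IFI44 at 0.98, OASL at 0.89, the ubiquitin-like modifier ISG15 at 0.77 and the exonuclease ISG20 at 0.52, all from the authors' deposited table. Their p-values before adjustment ran from 0.00224 for IFIT2 to 0.0379 for ISG20 in the authors' deposited table.

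The factors IRF9 and IRF7 of interferon signalling were near 0. IRF9, a subunit of the factor that interferon activates, was at -0.10 in the authors' deposited table. IRF7, which amplifies the response, was at 0.08 in the authors' deposited table. The RNA sensors did not share a sign, with DDX58, or RIG-I, at -0.13 and IFIH1 at 0.31 (unadjusted p = 0.124 for IFIH1) in the authors' deposited table. Members with an implied standard error at or under the median of all genes had a median of -0.009, so the positive group lay among the less precise members.

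The same 8 genes were all positive in TPA, at 0.20 for IFIT5 to 0.55 for ISG15 in the authors' deposited table. In the nucleic acid sensing list, TREX1, a nuclease that removes cytosolic DNA, was at -1.27 per the authors' deposited table, with unadjusted p = 0.0157. That list had 14 of 29 members positive and a median of -0.006.

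The promoters of these genes were read from RefSeq (GRCh38.p14, 250 bases before to 50 after each gene's start). An entry was matched for 31 of the 41 list members. The core of the interferon-stimulated response element, searched on either strand as GAAA followed after any 2 bases by GAAA, was found in 19 of the 31, or 61.3%, against 3.65% of 27305 promoters and 2.93% of 9101 promoters of tested genes. A list of genes that interferon induces is likely to hold this element, so the share describes the list and not the knockdown. All 6 matched genes among the 8 above hold the element. They are shown because each holds the element, with upstream bases only, 5′ to 3′ along the gene's strand and the element in capitals. The stretches are chr10:89392477-89392559 for IFIT1, chr10:89327811-89327914 for IFIT3, chr10:89414493-89414567 for IFIT5, chr1:1013354-1013429 for ISG15, chr1:78649741-78649788 for IFI44 and chr15:88638917-88638986 for ISG20, all on the plus strand.
IFIT1: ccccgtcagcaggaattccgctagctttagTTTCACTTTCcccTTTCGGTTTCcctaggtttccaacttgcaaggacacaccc
IFIT3: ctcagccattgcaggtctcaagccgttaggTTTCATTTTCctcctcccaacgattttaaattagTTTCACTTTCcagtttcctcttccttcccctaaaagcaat
IFIT5: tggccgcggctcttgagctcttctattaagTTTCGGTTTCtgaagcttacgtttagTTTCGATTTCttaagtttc
ISG15: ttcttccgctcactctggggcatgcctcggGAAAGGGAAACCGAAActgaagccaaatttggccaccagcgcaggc
IFI44: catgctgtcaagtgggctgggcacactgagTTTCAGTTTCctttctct
ISG20: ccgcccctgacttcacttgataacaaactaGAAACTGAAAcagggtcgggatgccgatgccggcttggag

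IFIT1, IFIT3, IFIT5 and ISG15 carry 2 copies in these stretches, which overlap in ISG15, and IFI44 and ISG20 carry 1. List members with the element had a median fold change of 0.31 and those without it a median of -0.004. Outside the list, 248 tested genes with the element had a median of 0.013 and 56.9% of them were positive. Of those 248 genes 5 were higher and 5 lower at an unadjusted p under 0.05, where the background shares are 1.37% and 1.67%. The lower ones include PRKCQ itself. GBP4, an interferon-inducible GTPase, and CD274 were among the 5 higher ones, at 0.85 and 0.84 in the authors' deposited table. The others were KLHL5, PTCH1 and GCA, at 0.38, 0.33 and 0.26. Promoters of 8 of the 10 genes that fell were matched, and the AP-1 site TGANTCA, the NF-kappaB site (GGG, any 2 bases, TT, any base, CC) and the ATF4 site TGATGNAA were found in 0 of these 8 windows on either strand. Over 27305 promoters these sites were found in 7.76%, 5.67% and 3.67%, and over promoters of tested genes in 4.33%, 6.86% and 1.57%. The NFAT core TTTTCC was in 1 of the 8 windows, that of PRKCQ, against 24.3% of all promoters and 20.1% of those of tested genes. With 8 windows, these counts cannot tell whether the genes that fell hold such sites less often than other genes.

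**Figure D4:**
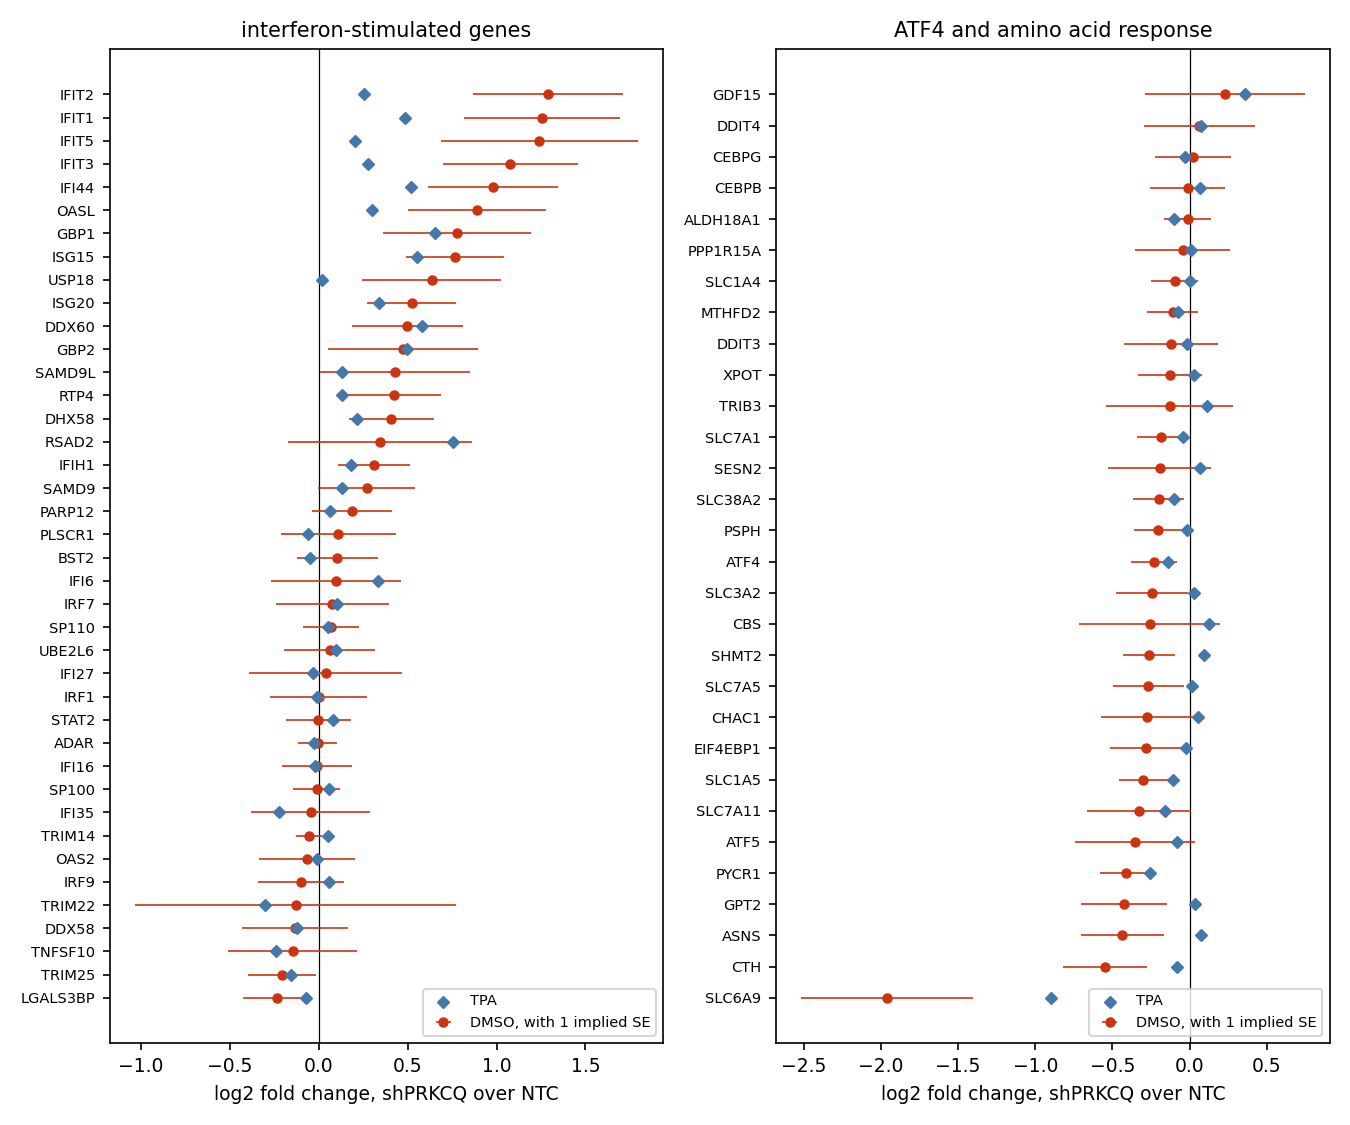
Members of the interferon-stimulated list (left, 40 of 41 shown) and of the ATF4 and amino acid response list (right) are ordered by log2 fold change of shPRKCQ over NTC in DMSO (circles, with 1 implied standard error), beside the same genes in TPA (diamonds). The IFIT genes lead the left panel at 1.08 to 1.29, and 27 of 30 members of the right panel lie under 0 in DMSO.

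Genes of the ATF4 response, through which cells answer a shortage of amino acids, went the other way. In this list 27 of 30 members were negative, the median was -0.217, and 3 were negative at an unadjusted p under 0.05, where the background share is 1.67%. None passed the adjusted threshold. SLC6A9 was at -1.96, PYCR1, a proline synthesis enzyme, at -0.41 and CTH, which makes cysteine, at -0.55 per the authors' deposited table, with unadjusted p = 0.000442, 0.0173 and 0.0461.

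Members with an implied error at or under the median of all genes had a median of -0.199. ASNS, asparagine synthetase, was at -0.44, ATF4 itself at -0.23 and the amino acid transporter genes SLC7A11, SLC1A5 and SLC7A5 at -0.33, -0.30 and -0.27 in the authors' deposited table. The stress effectors DDIT3 and PPP1R15A were at -0.12 and -0.04 in the authors' deposited table. In TPA 15 of the 30 members were positive and the median was -0.006. Whether the list as a whole differed between treatments was not tested. No single member passed the test of the difference, nor did any other tested gene.

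Cytoplasmic tRNA synthetase genes, many of which ATF4 controls, had 15 of 20 members negative and a median of -0.090. Genes of ER chaperones and the unfolded protein response had 32 of 45 negative and a median of -0.066, with the translocation factor DERL1 at 0.14 per the authors' deposited table, with unadjusted p = 0.0164. Serine, one-carbon and nucleotide synthesis genes had 21 of 39 negative and a median of -0.014, with SFXN1 the 1 member at an unadjusted p under 0.05.

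The site TGATGNAA, which ATF4 binds with C/EBP partners, was found on either strand in 4 of 24 matched promoters of the list, or 16.7%. The share was 3.67% over all promoters and 1.57% over promoters of tested genes. A list of ATF4 response genes is likely to hold this site, so its share describes the list and not the knockdown. The stretches of CHAC1 (chr15:40953232-40953299, plus strand) and ASNS (chr7:97872439-97872506, minus strand) are shown as the 2 with the site upstream of the start, in capitals.
CHAC1: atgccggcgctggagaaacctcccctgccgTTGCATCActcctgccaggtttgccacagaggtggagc
ASNS: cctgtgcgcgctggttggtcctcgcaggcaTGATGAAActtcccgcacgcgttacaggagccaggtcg

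CHAC1, a glutathione-degrading enzyme, was at -0.28 by the authors' deposited table, with an unadjusted p of 0.359, and ASNS had an unadjusted p of 0.104. The 4 members with the site had a median of -0.261 and the 20 without it a median of -0.128. None of the 4 was at an unadjusted p under 0.05, so the medians are given as a description.

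Lists of the protein-making and energy machinery were not of 1 sign. Cytosolic ribosomal protein genes had 75 of 85 members positive with a median of 0.077, and mitochondrial ribosomal protein genes 58 of 78 with a median of 0.072. Complex I subunits had 29 of 37 positive (median 0.065) and ATP synthase subunits 17 of 19 (median 0.075). None of these 4 lists had a member at an unadjusted p under 0.05, where the background share in either direction is 3.04%. Translation initiation and elongation factors had 29 of 48 positive with a median of 0.025. Transcripts encoded by mitochondrial DNA had 5 of 15 positive with a median of -0.031, and the cytoplasmic tRNA synthetase genes given above were mostly negative too.

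Cytosolic chaperones and heat shock genes had 31 of 40 members positive and a median of 0.139. Again no member was at an unadjusted p under 0.05, where the background share in either direction is 3.04%. The inducible HSPA1A was at 0.76 and HSPA8 at 0.39 per the authors' deposited table, with unadjusted p = 0.185 and 0.308. Members with small errors had a median of 0.014.

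Mitosis genes had 42 of 52 positive and a median of 0.075 in DMSO, whereas in TPA 6 of the 52 were positive and the median was -0.134. The DMSO direction turned among members with small implied errors, whose median was -0.034, and the weighted mean was 0.035. CDK1, the mitotic kinase, was at 0.23 under vehicle and -0.21 under TPA by the authors' deposited tables. No mitosis member passed the test of the difference, nor did any other tested gene. DNA replication genes had 19 of 49 positive and a median of -0.021. MKI67, the proliferation marker, was at -0.07 in the authors' deposited table.

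Cholesterol synthesis genes had 17 of 30 members negative and a median of -0.084. SCAP, the sterol sensor's escort, and CYP51A1, a lanosterol demethylase, were at -0.23 and -0.33 per the authors' deposited table, with unadjusted p = 0.0177 and 0.0326. Glycolysis and hypoxia genes had 28 of 38 positive with a median of 0.062, and EGLN3, an oxygen-sensing hydroxylase, was at 0.39 per the authors' deposited table, with unadjusted p = 0.0412. The 265 ZNF zinc finger genes were divided evenly, 132 positive and 133 negative, with a median of -0.001.

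Structural RNAs that carry no poly(A) tail or only a short one were among the largest positive values, in libraries selected for poly(A). RN7SK (chromosome 6, 52995621 to 52995948), which holds P-TEFb inactive, rose, with 4.20 and an implied standard error of 0.96 per the authors' deposited table, with adjusted p = 0.0149. SNORD3A, the U3 small nucleolar RNA, was at 3.998, RN7SL1 and RN7SL2, the signal recognition particle RNAs, at 2.40 and 1.76, and SNORD17 at 1.80 in the authors' deposited table. The mitochondrial ribosomal RNAs MT-RNR1 and MT-RNR2 were at 1.72 and 0.72 in the authors' deposited table. Both RN7SL genes have near-identical copies, so their reads could be divided among these.

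All 7 genes annotated as snRNA, snoRNA, misc_RNA or mitochondrial rRNA were positive and at an unadjusted p under 0.05, from 0.72 to 4.20. In TPA the same 7 ran from -0.29 to 0.30 with a median of -0.019. Among the 13 mitochondrial messenger RNAs, 10 were negative in DMSO and 2 in TPA.

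Replication-dependent histone genes, whose transcripts mostly lack the tail, had 19 of 23 members positive and a median of 0.397. HIST1H4J was at 1.94, HIST2H2BF at 1.26 and HIST1H2AG at 0.63 per the authors' deposited table, with unadjusted p = 0.00114, 0.0254 and 0.0452. Histone genes have near-identical copies, so reads could be divided among them. MALAT1, a nuclear long RNA without a canonical tail, was at 1.17 per the authors' deposited table, with unadjusted p = 0.0111, and NEAT1, its nuclear neighbour, at 0.18.

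IGHM, the immunoglobulin mu constant gene of B cells, stood beside them at 4.05 with an implied standard error of 1.10 per the authors' deposited table, with adjusted p = 0.126. With TPA, IGHM was at -0.46 per the authors' deposited table. CD79A, the B cell receptor chain, was at 0.36 per the authors' deposited table, with unadjusted p = 0.186. The part of 1 or a few libraries in the values of IGHM and the structural RNAs was not tested.

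Fold changes also differed by chromosome. On chromosome 22, 242 of 281 protein-coding genes were negative, or 86.1%, with a median of -0.108. On the other nuclear chromosomes, Y aside, the share ran up to 58.2%, on chromosome 3. In TPA, 82.9% of the same chromosome 22 genes were negative and the median was -0.124. The TPA libraries are separate but come from the same lines with the same hairpin labels, so TPA is not an independent repeat. Genes on 1 chromosome share libraries and fits and are not independent replicates, so the share carries no test.

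**Figure D5:**
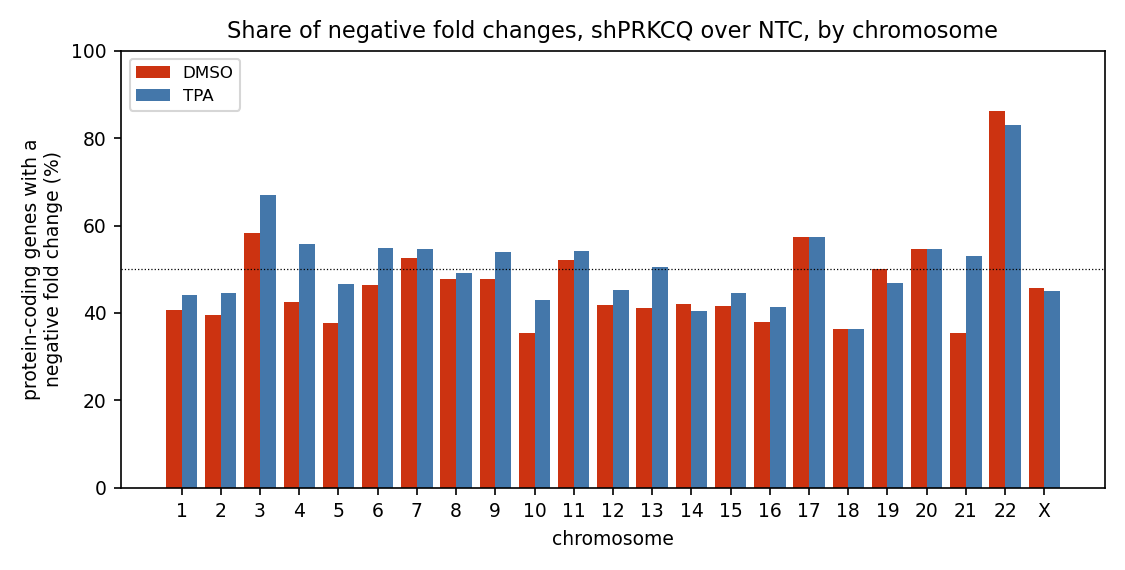
Bars give the percentage of tested protein-coding genes with a negative log2 fold change of shPRKCQ over NTC on each chromosome, in DMSO and in TPA, and the dotted line marks 50%. Chromosome 22 stands at 86.1% and 82.9%, and chromosome 3, at 58.2% and 67.0%, comes next among nuclear chromosomes.

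Negative values were spread along chromosome 22. In consecutive windows of 25 tested protein-coding genes, 10 of 11 windows on chromosome 22 had at least 20 negative genes. Elsewhere this held for 10 of 419 windows, where the median was 11 negative genes. The window medians on chromosome 22 lay between -0.076 and -0.152. Windows with at least 20 positive genes numbered 16, all on other chromosomes. Of the 10 one-sided negative windows elsewhere, 7 lay on the short arm of chromosome 3, the arm that also holds EAF1.

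Over all gene types, 345 genes on chromosome 22 were tested. Of these 17 were lower and 1 higher at an unadjusted p under 0.05, where the background shares are 1.67% and 1.37%, and none passed the adjusted threshold. IL2RB and CABIN1, named above, are 2 of the 17. ADA2, an extracellular adenosine deaminase, was at -0.68, PLXNB2, a semaphorin receptor, at -0.41 and NUP50, a nuclear pore protein, at -0.31 per the authors' deposited table, with unadjusted p = 0.00696, 0.0108 and 0.0104. SMDT1, a regulator of the calcium uniporter, was at -0.23 in the authors' deposited table. PIM3, a survival kinase, was the 1 higher gene, at 0.40 per the authors' deposited table, with unadjusted p = 0.033. These values stand beside a median of -0.108 for the chromosome's protein-coding genes, and whether its DNA copy number differed between shPRKCQ and NTC cells was not tested.

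Base composition moved with the fold change too. Among protein-coding genes split into 5 groups by the GC content of their longest transcript, 64.4% were positive in the group with the lowest GC and 46.0% in the group with the highest. Across 11060 protein-coding genes the Spearman correlation with GC content was -0.143 in DMSO and 0.048 in TPA, a description across genes that share libraries. Within every GC group at least 81.0% of chromosome 22 genes were negative, against at most 52.2% of other genes, although the lowest group held just 2 genes of that chromosome. By gene type, 66.0% of 285 processed pseudogenes and 53.4% of 11065 protein-coding genes were positive, as were 42.1% of 489 antisense genes and 44.7% of 432 lincRNAs.

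Set beside TPA, the resting effects pointed the same way for most genes. Of the 395 genes at an unadjusted p under 0.05 in DMSO, 368 had the same sign in TPA, or 93.2%, against 64.2% of all tested genes. Both treatments used the same lines with the same hairpin labels, so the shared sign is not an independent repeat. For the 178 higher genes the DMSO median was 0.40 and the TPA median 0.19, and for the 217 lower genes they were -0.40 and -0.24. These genes were chosen on their DMSO values, and the 2 tables may not be on 1 scale of fold change, so the smaller TPA values are given as a description.

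The difference between treatments was tested per gene from the fold changes and implied standard errors. No gene passed after Benjamini-Hochberg adjustment, and 57 genes, 0.438%, were at an unadjusted p under 0.05. That share is less than this threshold sets when no gene differs, so the p-values of the difference may be too large. The lack of passing genes therefore does not show that the effects were equal in both treatments. RN7SK differed by 4.30 and AC008012.1 by -0.97 (unadjusted p = 5.11e-05 and 6.93e-05, adjusted p = 0.45 for both). Next came CYP4F12, a cytochrome P450, at 1.80 under vehicle and -0.23 under TPA by the authors' deposited tables (adjusted p of the difference = 0.851). LIMK1 and NFATC2 were at -0.31 and -0.33 under TPA by the authors' deposited table, and their differences had unadjusted p = 0.0888 and 0.0933.

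A further 18 genes were listed with a fold change and no p-value, and all 18 also lacked one in TPA. CD28, the costimulatory receptor whose signal meets that of protein kinase C theta, was at -0.67 among them, CCL22, a chemokine for CCR4, at 1.25 and MX2, an interferon-induced GTPase, at 0.37 in the authors' deposited table. These genes enter the number of listed genes, and CD28 that of listed T cell markers, but no count of tested genes.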

How the data were processed

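RNA sequencing was done on poly(A)-selected RNA with a strand-specific kit and molecular identifiers, per the labels' protocols. Tools named in the submitters' processing notes, with no role given, are DESeq2 1.18.1, RSEM 1.3.0 and STAR 2.5.3a, and the build is GRCh38. How the model was specified, and whether fold changes were shrunken, is not given in the sources used here. For each gene the authors deposited a log2 fold change with its p-value before and after adjustment, per the file headers, fitted over libraries of both lines. Sequencing depth is unknown, and no count test was run, although count fits would have been used had library values been at hand.

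The adjusted p-values differed from a Benjamini-Hochberg adjustment of the deposited p-values by a relative 0.00235 at most. Symbols and GRCh38 coordinates come from GENCODE release 29, to which all 13025 identifiers matched. For each gene, a z-value was taken from the p-value and the sign, and the implied standard error is the fold change over z. The difference from TPA was divided by the root of the summed squared errors and read two-sided against the normal distribution, taking the tables as independent, since they share no library although cultures may be shared. This step was run on simulated data drawn with the same implied errors, which checks the arithmetic and not whether those errors suit the data.

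Named are all genes at an adjusted p under 0.05, the next 15 per direction by p, the 10 largest changes per direction at an unadjusted p under 0.05, PRKCQ and its family and, in each list, members at that level or otherwise the 3 with the smallest p. Of these, the text gives those with a textbook role, and some genes are not reported here. Other list members, neighbours and genes with a promoter element were named after their values were seen. Members, lists, motifs and rules were chosen with earlier results of these data known. Where a promoter table had several entries for a symbol, the first was kept. Software was pandas 2.3.3, scipy 1.17.1, numpy 2.4.6 and matplotlib 3.10.9 under Python 3.11.15. Alternatives changed the threshold, the adjustment, the genes adjusted over and the list summary.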

Additional observations from a re-analysis of the deposited data

How the results depend on the processing

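Of the 14 genes past the threshold, 8 were left at an adjusted p under 0.01, 7 under Holm adjustment, 6 under Benjamini-Yekutieli adjustment and 3 when an absolute log2 fold change of 1 was also required. PRKCQ, LDLRAD3, LIMK1, EAF1 and NFATC2 were among those that passed under every adjustment. Leaving out non-polyadenylated RNAs and histone genes gave 10, since RN7SK was itself left out and FNIP2, MROH6 and NOTCH1 no longer passed (adjusted p = 0.0519 for each). An adjusted p under 0.1 gave 19. At an unadjusted p under 0.01 there were 123 genes, 46 higher and 77 lower, in place of 395. The number of lists with an absolute median of at least 0.1, 4 in the report, was 1 among members with small implied errors, the ATF4 list. Of 77 list medians, 17 changed sign as a weighted mean, and 11 among precise members. Chosen after seeing the data, a count among precise genes put 90.6% of protein-coding genes of chromosome 22 under 0, and leaving that chromosome out changed none of the 14 calls. The z-value form of the difference from TPA also gave 0 genes after adjustment, with 55 at an unadjusted p under 0.05.

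No paired analysis was possible because the columns carry no libraries or replicate numbers. For the same reason fits with edgeR or DESeq2, filters on low counts and leaving out replicates were not run. The lack of library values limits all results: the part of a single library or line in any of them was not tested.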
